A study of Mus musculus with 6 samples.

Results

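The 10 genes described here, in mouse macrophages, are Pla2g4a, Ptgs1, Ptgs2, Ptges, Tbxas1, Ptger4, Alox5, Alox5ap, Lta4h and Pla2g7. All but Pla2g7, whose product breaks down the lipid mediator platelet-activating factor, encode the core of eicosanoid synthesis or 1 of its receptors. The 10 genes were chosen by name, with earlier results of these data known, from a table of 54532 genes, and all 10 names were found once each. The table comes from RNA-seq of 6 libraries of primary macrophages from wild-type (WT) mice. The 3 rmMETRNL samples were treated in vitro for 6 h with rmMETRNL, a preparation named for the secreted protein METRNL (meteorin-like), and the 3 vehicle samples received vehicle. All 6 samples were then challenged with the yeast Candida albicans for 6 h, which leaves what the fungus alone does outside the comparison. The labels name neither the tissue of origin nor distinct animals or cultures for the replicates, so p-values measure only a spread between samples that may be technical. The columns of the table carry short names that were read as rmMETRNL and vehicle from their letters, and each direction given here rests on that reading.

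Eicosanoids are short-lived lipid signals made from arachidonic acid. A phospholipase frees arachidonic acid from membranes, and cyclooxygenases turn it into prostaglandin H2, which terminal synthases convert into prostaglandins or thromboxane. In a parallel branch, 5-lipoxygenase with its activating protein makes leukotriene A4, the precursor of the neutrophil attractant leukotriene B4 and of the cysteinyl leukotrienes. Macrophages that meet microbes are known to induce cyclooxygenase-2 and microsomal prostaglandin E synthase-1, and the prostaglandin E2 they release acts back on them through the receptors EP2 and EP4.

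The sequences before the start sites of 3 of these genes are shown because both cyclooxygenases and the prostaglandin E synthase carry the main contrasts described below, in level and between pretreatments. The 250 bases upstream of the RefSeq start (GRCm38.p6) are printed 5′ to 3′ on the strand of the gene, with matches to the motifs searched in capitals. For Ptgs2 the window is chr1:150099781-150100030 on the plus strand, for Ptges chr2:30903298-30903547 on the minus strand, and for Ptgs1 chr2:36230176-36230425 on the plus strand.
Ptgs2: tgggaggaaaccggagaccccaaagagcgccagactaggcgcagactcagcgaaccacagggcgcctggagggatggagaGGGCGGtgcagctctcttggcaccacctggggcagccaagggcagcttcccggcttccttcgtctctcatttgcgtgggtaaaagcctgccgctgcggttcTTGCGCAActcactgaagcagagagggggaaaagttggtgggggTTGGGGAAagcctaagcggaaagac
Ptges: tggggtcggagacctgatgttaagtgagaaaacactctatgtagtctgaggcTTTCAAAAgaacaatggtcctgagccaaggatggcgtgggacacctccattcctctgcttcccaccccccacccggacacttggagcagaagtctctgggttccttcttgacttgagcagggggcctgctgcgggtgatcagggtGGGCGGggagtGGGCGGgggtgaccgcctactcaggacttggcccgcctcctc
Ptgs1: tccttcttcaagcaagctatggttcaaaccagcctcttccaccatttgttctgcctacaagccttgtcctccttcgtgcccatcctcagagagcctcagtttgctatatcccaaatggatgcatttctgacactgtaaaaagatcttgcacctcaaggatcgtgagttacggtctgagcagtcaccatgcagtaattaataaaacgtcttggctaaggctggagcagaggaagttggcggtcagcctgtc
The Ptgs2 window held 1 GC box (GGGCGG) that began 170 bases before the start and 2 C/EBP-type matches (TTNNGNAA), TTGCGCAA at 69 and TTGGGGAA at 25 bases before the start. The Ptges window held 2 GC boxes, at 53 and 42 bases before the start, and 1 C/EBP-type match, TTTCAAAA, at 198. The Ptgs1 window held no match to any of the 7 motifs searched, and its GC content was 48.0%, against 61.6% for Ptgs2 and 59.6% for Ptges. The median over all 32851 RefSeq promoter windows was 52.4%. Among the genes described here GC content ran from 39.6% (1 window of Pla2g4a) to 66.8% (Ptger4). Motifs were searched on both strands, and the other 5 were TATAAA, the kappaB motif, TGACG (from the cyclic AMP response element), TGANTCA (AP-1) and GCGNGGGCG (EGR). Sequences were found for 9 of the 10 genes, all but Alox5ap, in 10 windows, as Pla2g4a has 2 RefSeq starts. Of these 9 genes 5 held a GC box (Ptgs2, Ptges, Ptger4, Alox5 and Pla2g7) and 3 a C/EBP-type match (Ptgs2, Ptges and Pla2g4a), against 32.7% and 36.8% of the 32851 promoter windows in the RefSeq table. TATAAA was found in 2 (Pla2g4a and Tbxas1) and the AP-1 motif in 1 (Tbxas1), against 12.4% and 6.75% of all windows. The Pla2g4a match to TATAAA lay only in its window inside the gene span, chr1:149922440-149922689. The Tbxas1 window, chr6:38918736-38918985, also lay inside the gene span given in the table, as did the Pla2g7 window, chr17:43568201-43568450. The Tbxas1 matches thus lie downstream of the start of that span. The kappaB, TGACG and EGR letters were found in 0 of the 9, against 4.65%, 17.8% and 4.70% of all windows. Counts for these genes are per gene over its windows, while the shares are per window. A match is a string of letters and not a shown binding site. The windows cover no bases after the start and none further upstream, so a count of 0 does not show that a gene lacks such a site.

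The libraries held 14861916 to 15744878 reads (or read pairs) in the rmMETRNL group and 13235001 to 18145733 in the vehicle group. All 10 macrophage markers, such as Lyz2, Cd68 and Adgre1, were above the tested level of a mean of 1 FPKM (fragments per kilobase of gene, scaled to library size), and all 8 retina markers, checked because a protocol text names retinas, were below it. The summed level of the macrophage list was 9455 to 9747 FPKM in the rmMETRNL group and 9695 to 10238 FPKM in the vehicle group, and the groups did not overlap in 3 of its genes that were higher with rmMETRNL and 3 that were lower. Of these Cd14 stood at 2241 to 2346 FPKM in the rmMETRNL group and 2589 to 2712 FPKM in the vehicle group (log2 fold change -0.20, limma adjusted p = 0.189) and passed voom (adjusted p = 0.0466). Of 10 neutrophil markers 3 were above that level (S100a8, S100a9 and Mmp8), Ly6g reached at most 0.490 FPKM, and Elane, a gene of neutrophil precursors, was at 0 in all 6 libraries. S100a9 stood at 30.7 to 37.1 FPKM in the rmMETRNL group and 23.5 to 24.9 FPKM in the vehicle group (limma adjusted p = 0.151), and the summed level of the list was 190 to 206 FPKM in the rmMETRNL group and 176 to 188 FPKM in the vehicle group. Of 8 platelet markers 2 were above it (Pf4 and Ppbp), with sums of 76.9 to 83.7 FPKM in the rmMETRNL group and 55.6 to 70.0 FPKM in the vehicle group, nearly all of it Pf4 (74.9 to 81.9 FPKM in the rmMETRNL group and 53.5 to 68.1 FPKM in the vehicle group, limma adjusted p = 0.233). Mast cells also make eicosanoids, and 4 of their 10 markers (Tpsb2, Hdc, Cma1 and Cpa3) were above it, with sums of 20.9 to 24.6 FPKM in the rmMETRNL group and 17.5 to 24.2 FPKM in the vehicle group. For fibroblasts, endothelial cells, B cells, T or NK cells and dendritic cells 3 of 8, 2 of 8, 3 of 6, 1 of 8 and 1 of 8 markers were above that level. The part of these markers in the results below was not tested. In bulk samples fewer cells of a type and less RNA per cell cannot be told apart. Library 3 of the rmMETRNL group stood apart in its relation to gene length: across genes, the Spearman correlation between its deviation from the mean of the 6 libraries and gene length was 0.313, where the other 5 lay between -0.168 and -0.0212. For the 10 genes described here and the ratios between them, values without a single library are given where that library moves a result by over 1.5 times or turns its sign. For other genes such values are not given, so how far their results rest on 1 library is not shown.

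The 10 genes spanned a wide range of levels, and their order was the same in all 6 libraries. By mean FPKM they ran Ptgs2, Pla2g7, Ptges, Alox5ap, Pla2g4a, Lta4h, Ptgs1, Tbxas1, Ptger4 and Alox5. FPKM divides by the table's gene length, which covers all exons of a gene and can exceed any transcript. It was 9094 bases for Tbxas1, whose longest transcript has 4562, and 3931 bases for Ptges, whose longest has 3647. The order of the genes and the gaps between them rest on these lengths. Ptgs2 was the gene of rank 21 by mean FPKM in the whole table, at 1975 FPKM, and Alox5 ranked 9227, at 1.27 FPKM. Each gene's lowest library lay above the highest library of the next gene in this order. The closest neighbours were Lta4h and Ptgs1, where the lowest Lta4h value was 9.76 FPKM and the highest Ptgs1 value 9.48 FPKM. The 10 genes together took 1.11% to 1.31% of the reads in the rmMETRNL libraries and 1.01% to 1.08% in the vehicle libraries. Ptgs2 alone made up 78.5% to 82.8% of these reads over the 6 libraries, with the highest share in rmMETRNL library 3.

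**Figure D1:**
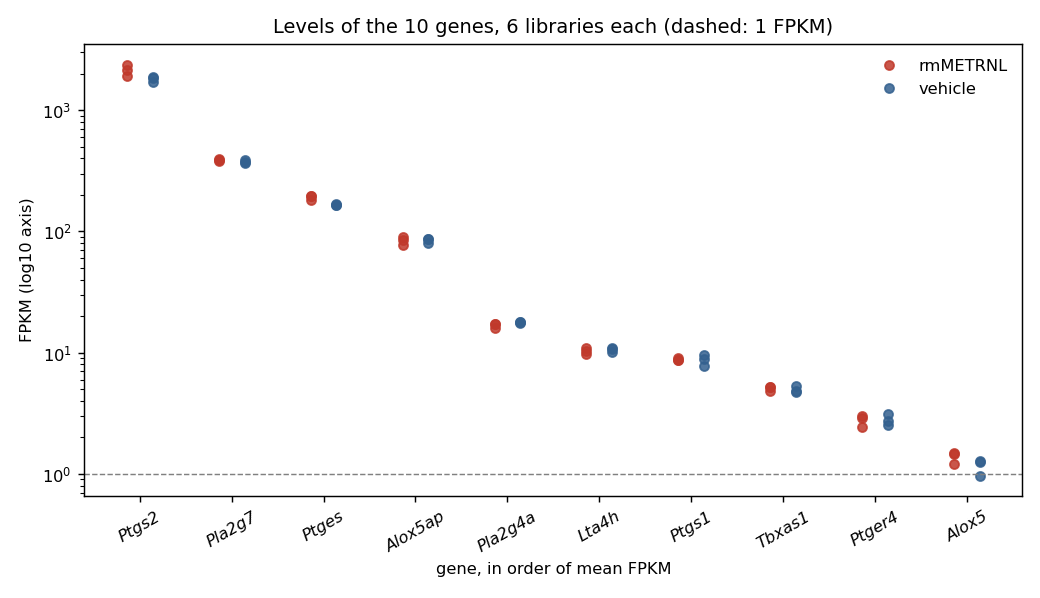
Level of each of the 10 genes in FPKM on a log10 axis, with the 3 rmMETRNL libraries at left in red and the 3 vehicle libraries at right in blue for each gene. No gene's points reach those of its neighbours in the order, from Ptgs2 (mean 1975 FPKM) to Alox5 (mean 1.27 FPKM).

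In the comparison between pretreatments, 2 of the 10 genes, Ptgs2 and Ptges, stood higher with rmMETRNL in all 3 libraries. The 95% intervals of the other 8 genes included no difference. Ptgs2 averaged 2146 ± 227 FPKM in the rmMETRNL libraries and 1804 ± 82.7 FPKM in the vehicle libraries (mean ± SD, n = 3 each, as for all such values here). Ptges averaged 191 ± 7.67 FPKM in the rmMETRNL libraries and 166 ± 1.16 FPKM in the vehicle libraries. Neither passed the test. In limma on log2(FPKM + 1), 0 of the 10 genes had an adjusted p under 0.05 (lowest adjusted p = 0.199, for Ptges), where 0 of all 9867 genes tested (0.0%) did so (lowest adjusted p = 0.103). At an unadjusted p under 0.05 there were 2 of the 10 genes, Ptgs2 and Ptges, both higher with rmMETRNL, beside 7.54% of all genes tested that were higher and 7.13% that were lower at that level. In voom, run in limma on recovered reads, 0 of the 10 genes passed, beside 61 of 9867 genes (0.618%). At an unadjusted voom p under 0.05 there were 2 of the 10, Ptgs2 and Ptges, both higher with rmMETRNL, beside 15.6% of all genes tested at that level, with 7.27% of all genes higher. The median log2 fold change of the 10 genes was 0.03, and that of all genes tested was -0.0056.

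The groups did not overlap in 3 of the 10 genes, 2 higher with rmMETRNL (Ptgs2 and Ptges) and 1 lower (Pla2g4a). Among all genes tested this was so in 21.5%, with 10.9% higher and 10.6% lower. The mean was higher with rmMETRNL in 6 of the 10 genes and in 48.4% of all genes tested. That count of 6 was 8 after rescaling to TPM and with quantile normalization, as Alox5ap and Ptger4, both close to no difference, then took the other sign.

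**Figure D2:**
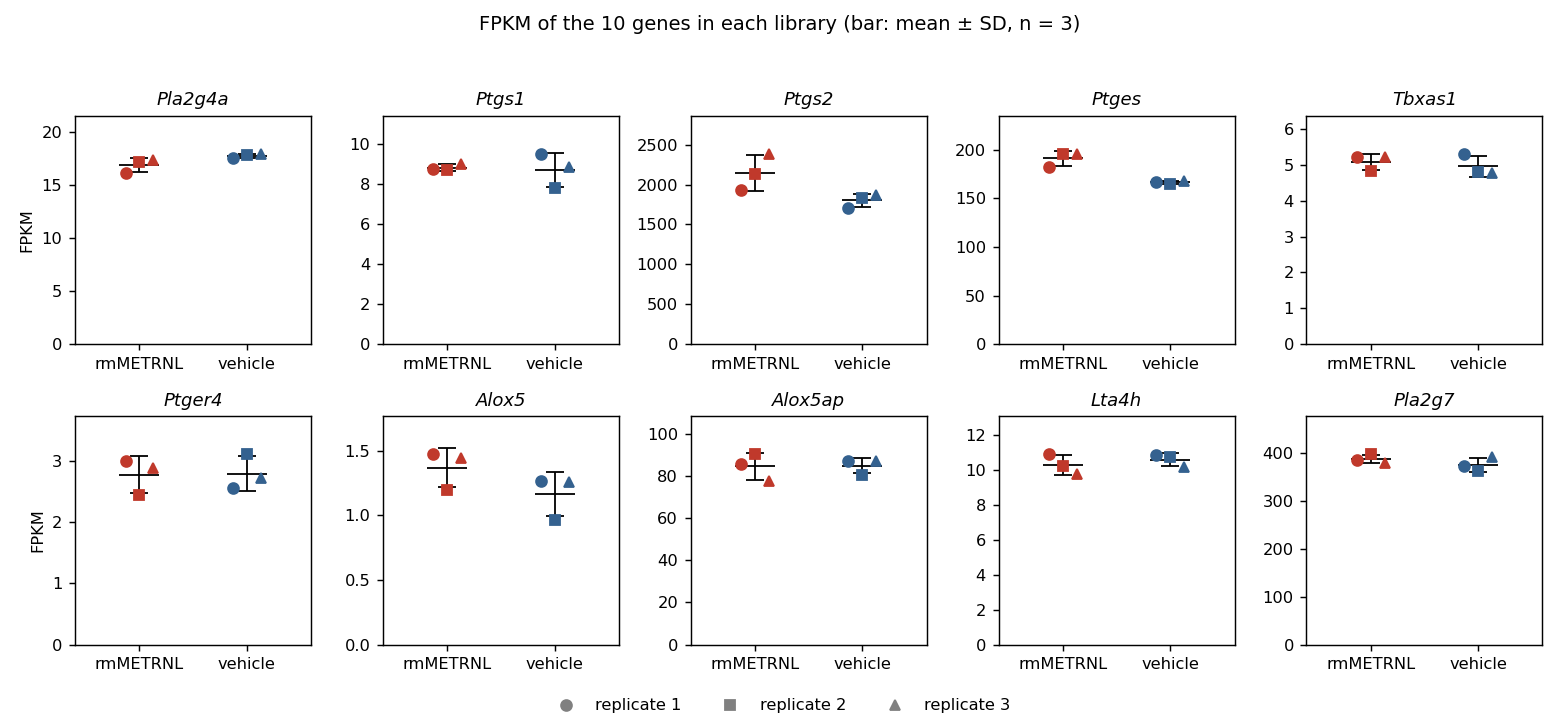
FPKM of each of the 10 genes in the 3 rmMETRNL libraries (red, left) and the 3 vehicle libraries (blue, right), each axis starting at 0, with the mean and SD as bars and the replicate number as the marker shape. The groups are apart in Ptgs2, Ptges and Pla2g4a and overlap in the other 7 genes.

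Pla2g4a (ENSMUSG00000056220, chromosome 1, 149829618 to 149961290, GRCm38) encodes cytosolic phospholipase A2 alpha, which frees arachidonic acid from membranes when calcium rises. It had 16.1, 17.1 and 17.3 FPKM in rmMETRNL libraries 1, 2 and 3, against 17.5, 17.8 and 17.9 FPKM in vehicle libraries 1, 2 and 3. All 3 rmMETRNL values lay below all 3 vehicle values, by a narrow margin. Its log2 fold change was -0.07 (SE 0.05, 95% interval -0.18 to 0.05, limma adjusted p = 0.553), and -0.04 without rmMETRNL library 1, the lowest of the 6. Pla2g4a and Ptgs2 are neighbours on chromosome 1, with 138740 bases between them. The table lists 3 genes wholly within that gap, of which 0 reached a mean of 1 FPKM. The means of this pair of neighbours differed in opposite directions.

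Ptgs2 (ENSMUSG00000032487, chromosome 1, 150100031 to 150108227) encodes cyclooxygenase-2, the inducible enzyme that makes prostaglandin H2 and a target of non-steroidal anti-inflammatory drugs. It had 1927, 2132 and 2380.1 FPKM in rmMETRNL libraries 1, 2 and 3, against 1712, 1831 and 1871 FPKM in vehicle libraries 1, 2 and 3. The lowest rmMETRNL value stood just above the highest vehicle value, and rmMETRNL library 3 was the highest of the 6. The log2 fold change was 0.25 (SE 0.08, 95% interval 0.05 to 0.44, limma unadjusted p = 0.0208 and adjusted p = 0.279), a ratio of means of 1.19. In voom it was 0.24 (SE 0.06, adjusted p = 0.0939), and over the 20 alternatives tried in all the adjusted p ran from 0.0939 to 0.605. Without rmMETRNL library 3 it was 0.17 (limma adjusted p = 0.466), and without rmMETRNL library 1, the lowest of its group, 0.32 (limma adjusted p = 0.259). After each library's trend with gene length was removed it was 0.24 (limma adjusted p = 0.270). Between 112080 and 161671 reads lay behind each Ptgs2 value. Its spread within groups was 0.118 (residual SD, log2 scale), larger than in 62.0% of all genes tested.

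Ptgs2 transcripts are known to be unstable, through AU-rich elements after the stop codon that bind decay factors such as tristetraprolin. In the longest GENCODE M21 transcript of Ptgs2 (4453 bases) the pentamer ATTTA occurred 15 times, 14 of them after the stop codon. This is 3.37 per kb, where the median over 9860 tested genes was 0.796 per kb and 97.3% of them had a lower density. The other 9 genes held between 0 (Ptges) and 6 (Ptger4). The nonamer TTATTTATT occurred in Ptgs2 and in none of the other 9 genes, and 9.30% of the tested genes hold it. It begins 18 bases after the stop codon and is in capitals here, in a stretch of the Ptgs2 transcript shown as an example of such an element.
Ptgs2 AU-rich site: ctgaccatatTTATTTATTtatgtgaagaa

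Ptgs1 (ENSMUSG00000047250, chromosome 2, 36230426 to 36252272) encodes cyclooxygenase-1, which catalyses the same reaction and is made constitutively in many tissues. It had 8.73, 8.71 and 8.99 FPKM in rmMETRNL libraries 1, 2 and 3, against 9.48, 7.78 and 8.82 FPKM in vehicle libraries 1, 2 and 3. The rmMETRNL values lay inside the vehicle range. On the log2 scale the fold change was 0.02 (SE 0.07, 95% interval -0.16 to 0.20, limma adjusted p = 0.925), and its sign turned to -0.05 without vehicle library 2. It was 0.08 without vehicle library 1, 0.0075 without rmMETRNL library 3 and 0.03 without vehicle library 3. In level, Ptgs2 exceeded Ptgs1 by 226-fold in mean FPKM over the 6 libraries. The within-library FPKM ratio of Ptgs2 to Ptgs1, which does not depend on library scaling, was 221, 245 and 265 in rmMETRNL libraries 1, 2 and 3, against 181, 235 and 212 in vehicle libraries 1, 2 and 3. The ranges overlapped, since vehicle library 2 exceeded rmMETRNL library 1. The mean log2 ratio differed by 0.22 (exact two-sided permutation test, p = 0.2, where 0.1 is the smallest p that 3 against 3 allows). Leaving out 1 library gave differences of 0.12 (without vehicle library 1) to 0.31 (without vehicle library 2), and 0.16 without rmMETRNL library 3.

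Ptges (ENSMUSG00000050737, chromosome 2, 30889471 to 30929863) encodes microsomal prostaglandin E synthase-1, the inducible enzyme that converts prostaglandin H2 into prostaglandin E2 and is known to be coupled to cyclooxygenase-2. It had 182, 196 and 196 FPKM in rmMETRNL libraries 1, 2 and 3, against 166, 165 and 168 FPKM in vehicle libraries 1, 2 and 3. All 3 rmMETRNL values lay above the vehicle values, which were close together. The log2 fold change was 0.20 (SE 0.04, 95% interval 0.09 to 0.30, limma unadjusted p = 0.00294 and adjusted p = 0.199). Of all genes tested 1.45% had a smaller p, and 81.9% had a smaller fold change in size. In voom the log2 fold change was 0.19 (SE 0.05, adjusted p = 0.0933), and over the 20 alternatives the adjusted p ran from 0.0933 to 0.419. The residual SD of Ptges was 0.0418 on the log2 scale, larger than in 6.18% of all genes tested. Leaving out any 1 of the 6 libraries gave log2 fold changes of 0.18 to 0.23. The RefSeq start used for the printed promoter lies within the gene span given in the table, which extends further upstream.

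Tbxas1 (ENSMUSG00000029925, chromosome 6, 38875404 to 39084585) encodes thromboxane A synthase, which competes for the same prostaglandin H2. It had 5.22, 4.83 and 5.21 FPKM in rmMETRNL libraries 1, 2 and 3, against 5.30, 4.79 and 4.78 FPKM in vehicle libraries 1, 2 and 3. The groups overlapped, with vehicle library 1 the highest of all. On the log2 scale the fold change was 0.03 (SE 0.06, 95% interval -0.12 to 0.19, limma adjusted p = 0.854). Over the fits without 1 library it ran from 0.01 (without vehicle library 3) to 0.07 (without vehicle library 1), with 0.02 without rmMETRNL library 1 or 3, 0.06 without rmMETRNL library 2 and 0.01 without vehicle library 2. In level, Ptges exceeded Tbxas1 by 35.6-fold in mean FPKM over the 6 libraries, a gap that rests on the table's gene lengths. The within-library FPKM ratio of Ptges to Tbxas1 was 34.9, 40.4 and 37.5 in rmMETRNL libraries 1, 2 and 3, against 31.4, 34.5 and 35.1 in vehicle libraries 1, 2 and 3. Vehicle library 3 lay above rmMETRNL library 1, so the ranges overlapped. The mean log2 ratio differed by 0.16 (exact two-sided permutation test, p = 0.2, smallest possible p 0.1) and by 0.11 to 0.21 without 1 library, lowest without rmMETRNL library 2 and highest without rmMETRNL library 1, so the difference between these synthases was not shown at this number of samples.

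Ptger4 (ENSMUSG00000039942, chromosome 15, 5206661 to 5244187) encodes EP4, the prostaglandin E2 receptor that raises cyclic AMP and dampens cytokine production in macrophages. It had 3.00, 2.44 and 2.89 FPKM in rmMETRNL libraries 1, 2 and 3, against 2.55, 3.11 and 2.73 FPKM in vehicle libraries 1, 2 and 3. The groups overlapped, and both the highest of the rmMETRNL values and the lowest of the vehicle values came from library 1. Its log2 fold change was -0.01 (SE 0.09, 95% interval -0.23 to 0.21, limma adjusted p = 0.983). Its sign turned to 0.06 without rmMETRNL library 2 and 0.05 without vehicle library 2, and the other fits without 1 library gave -0.05 to -0.02. Between 255 and 330 reads lay behind each value. Its exons overlap other genes on the opposite strand over 16.5% of their bases, among them Ttc33, which stood at 7.42 to 7.96 FPKM, so part of the Ptger4 value may belong to Ttc33 if counting ignored strand.

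**Figure D3:**
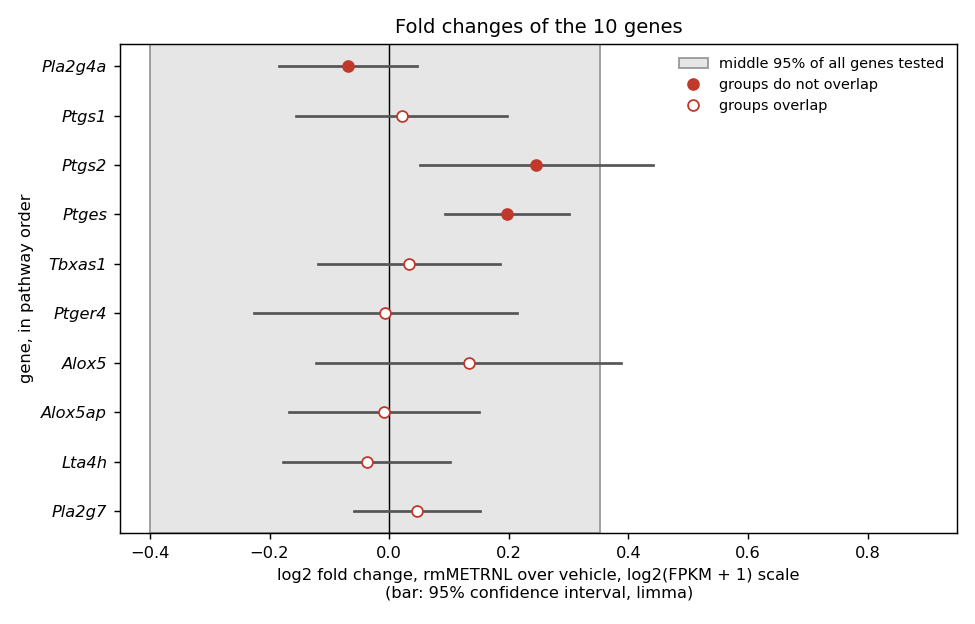
Log2 fold change of rmMETRNL over vehicle on the log2(FPKM + 1) scale for the 10 genes in pathway order, with the 95% confidence interval from limma as a bar and filled points where the groups do not overlap. The intervals of Ptgs2 (0.05 to 0.44) and Ptges (0.09 to 0.30) lie above 0 and those of the other 8 genes include 0, before any adjustment for the number of genes tested, and all 10 points lie inside the band that holds the middle 95% of all genes tested (-0.40 to 0.35).

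The leukotriene branch showed high levels of the activating protein and low levels of the lipoxygenase itself. Alox5 (ENSMUSG00000025701, chromosome 6, 116410077 to 116461178) encodes 5-lipoxygenase, the enzyme that starts leukotriene synthesis. It had 1.47, 1.19 and 1.45 FPKM in rmMETRNL libraries 1, 2 and 3, against 1.27, 0.966 and 1.26 FPKM in vehicle libraries 1, 2 and 3. Library 2 was the lowest in both groups, and its rmMETRNL value lay within the vehicle range. The log2 fold change was 0.13 (SE 0.11, 95% interval -0.12 to 0.39, limma adjusted p = 0.608), and 0.06 without vehicle library 2, the lowest of the 6. Only 53 to 94 reads lay behind each value, and the pseudocount of 1 shrinks the fold change of such a low gene: with a pseudocount of 0.1 it was 0.22, and in voom 0.21 (SE 0.19, adjusted p = 0.637).

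Alox5ap (ENSMUSG00000060063, chromosome 5, 149264767 to 149288153) encodes the 5-lipoxygenase activating protein FLAP, which presents arachidonic acid to the lipoxygenase. It had 85.6, 90.2 and 77.6 FPKM in rmMETRNL libraries 1, 2 and 3, against 86.8, 80.6 and 87.1 FPKM in vehicle libraries 1, 2 and 3. The rmMETRNL group held both the highest and the lowest value. The log2 fold change was -0.01 (SE 0.07, 95% interval -0.17 to 0.15, limma adjusted p = 0.970), and 0.05 without rmMETRNL library 3, the lowest of the 6. It was -0.06 without rmMETRNL library 2, -0.02 without rmMETRNL library 1, -0.04 without vehicle library 2, and 0.01 without vehicle library 1 or 3. Alox5ap exceeded Alox5 in level by 53.7-fold to 83.4-fold within a library. Its exons share 13.3% of their bases with Gm19719 on the opposite strand, which reached at most 0.234 FPKM.

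Lta4h (ENSMUSG00000015889, chromosome 10, 93453411 to 93484875) encodes leukotriene A4 hydrolase, which makes leukotriene B4. It had 10.9, 10.2 and 9.76 FPKM in rmMETRNL libraries 1, 2 and 3, against 10.9, 10.8 and 10.2 FPKM in vehicle libraries 1, 2 and 3. The groups overlapped almost fully, with rmMETRNL library 3 the lowest. The log2 fold change was -0.04 (SE 0.06, 95% interval -0.18 to 0.10, limma adjusted p = 0.812). Single libraries moved it: it was -0.0025 without rmMETRNL library 3, -0.07 without rmMETRNL library 1, -0.02 without vehicle library 1 and -0.06 without vehicle library 3.

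Pla2g7 (ENSMUSG00000023913, chromosome 17, 43568098 to 43612201) encodes a secreted phospholipase that breaks down platelet-activating factor, a lipid mediator outside the arachidonate branches. It had 386, 398 and 381 FPKM in rmMETRNL libraries 1, 2 and 3, against 374, 364 and 391.7 FPKM in vehicle libraries 1, 2 and 3. Vehicle library 3 lay between the rmMETRNL values, so the groups overlapped. Its log2 fold change was 0.05 (SE 0.04, 95% interval -0.06 to 0.15, limma adjusted p = 0.672), and the interval runs from 0.960-fold to 1.11-fold. It was 0.03 without rmMETRNL library 2, 0.02 without vehicle library 2 and 0.08 without vehicle library 3. Its exons share 11.0% of their bases with 1700071M16Rik on the opposite strand, at 1.66 to 3.63 FPKM.

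The other genes of these pathways were taken from 9 lists that name 83 genes beside the 10, in 84 rows of the table since Dpep2 is listed under 2 identifiers. Of these 84, 42 had a mean of at least 1 FPKM and were tested. None passed limma at an adjusted p of 0.05 and none passed voom. At an unadjusted p under 0.05 in limma there were 2 higher with rmMETRNL and 3 lower, beside 7.54% higher and 7.13% lower among all genes tested. The groups did not overlap in 6 of the 42 genes higher with rmMETRNL and 2 lower, beside 10.9% and 10.6% of all genes tested, and the median log2 fold change was 0.01.

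**Figure D4:**
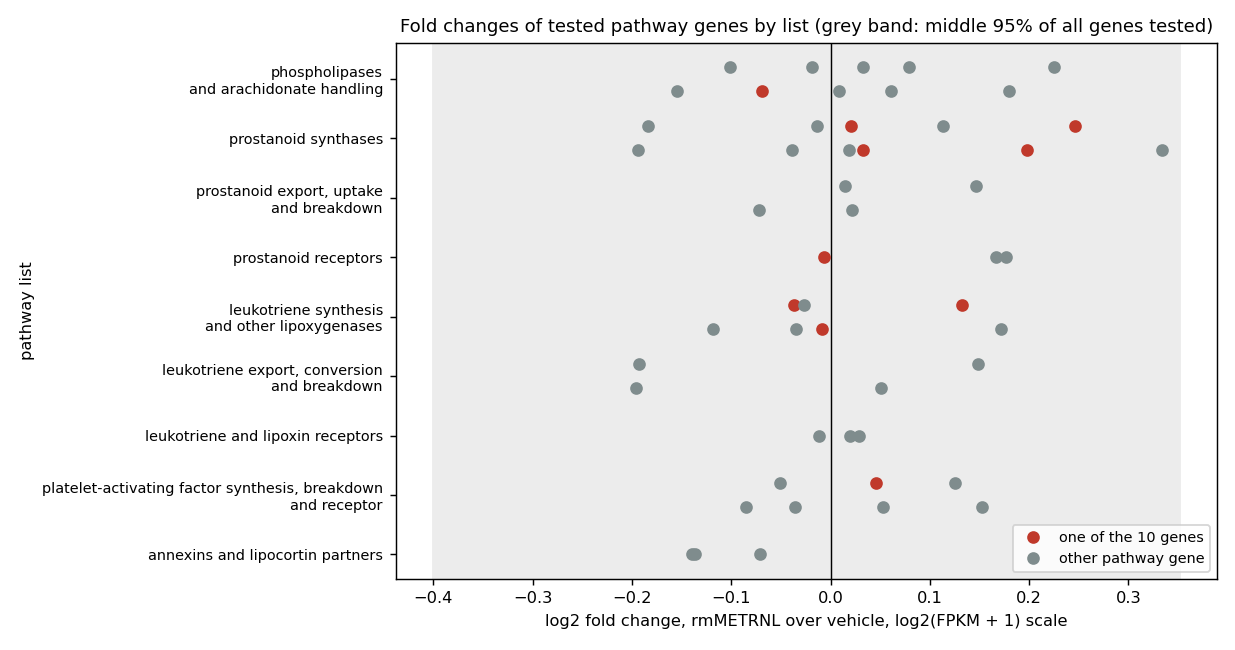
Log2 fold change of rmMETRNL over vehicle on the log2(FPKM + 1) scale for the 52 tested pathway genes by list, with the 10 genes described here in red and the others in grey. All points lie inside the grey band that holds the middle 95% of all genes tested (-0.40 to 0.35), and the 3 genes of the annexin list lie below 0.

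Among the prostanoid synthases, 11 of the 12 listed genes, Ptgs2 and Ptges included, were tested, with 7 means higher with rmMETRNL and 4 lower. Ptges3, a cochaperone also described as the cytosolic prostaglandin E synthase, had 49.2 ± 3.01 FPKM in the rmMETRNL group and 48.6 ± 3.20 FPKM in the vehicle group. Fam213b, a prostaglandin F synthase, had 8.41 ± 0.248 FPKM in the rmMETRNL group and 8.59 ± 1.70 FPKM in the vehicle group, and the aldose reductase gene Akr1b3 had 5.05 ± 0.216 and 5.22 ± 0.265 FPKM in those groups. None of these 3 differed beyond its spread. Of the 9 prostanoid receptors 3 were tested, and Ptgdr and Ptgdr2, which bind prostaglandin D2, were at 0 in all libraries. The prostacyclin receptor gene Ptgir had 28.7 ± 1.48 FPKM in the rmMETRNL group and 25.5 ± 2.08 FPKM in the vehicle group (log2 fold change 0.17, limma adjusted p = 0.344). Ptger2, which encodes the other cyclic AMP-coupled prostaglandin E2 receptor EP2, had 3.29 ± 0.265 FPKM in the rmMETRNL group and 2.80 ± 0.228 FPKM in the vehicle group, and its groups did not overlap (log2 fold change 0.18, limma adjusted p = 0.369). Ptger1, at 0.222 ± 0.0358 FPKM in the rmMETRNL group and 0.173 ± 0.0733 FPKM in the vehicle group, was below the tested level.

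The phospholipase and arachidonate list had 10 of 26 genes tested, with 6 means higher with rmMETRNL and 4 lower. Pla2g15, a lysosomal phospholipase A2, had the smallest p of the pathway genes outside the 10, at 16.4 ± 0.782 FPKM in the rmMETRNL group and 14.4 ± 0.503 FPKM in the vehicle group (log2 fold change 0.18, limma unadjusted p = 0.0141 and adjusted p = 0.259). The arachidonate-activating ligase gene Acsl4 had 63.5 ± 3.40 FPKM in the rmMETRNL group and 62.1 ± 4.01 FPKM in the vehicle group. Lpcat3, which puts arachidonate into phospholipids, had 11.1 ± 0.249 FPKM in the rmMETRNL group and 11.0 ± 0.395 FPKM in the vehicle group. Of the 6 genes for prostanoid export, uptake and breakdown 4 were tested. The reductase gene Ptgr1 had 124 ± 8.53 FPKM in the rmMETRNL group and 122 ± 7.69 FPKM in the vehicle group, the transporter gene Slco3a1 12.1 ± 0.876 FPKM in the rmMETRNL group and 10.9 ± 0.608 FPKM in the vehicle group, and the exporter gene Abcc4 1.80 ± 0.201 FPKM in the rmMETRNL group and 1.77 ± 0.265 FPKM in the vehicle group.

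In the leukotriene lists, 7 of 12 genes for synthesis and other lipoxygenases were tested, 2 with a higher and 5 with a lower mean with rmMETRNL. Cotl1, whose actin-binding product also binds 5-lipoxygenase, was abundant, at 488 ± 24.0 FPKM in the rmMETRNL group and 531 ± 35.6 FPKM in the vehicle group (log2 fold change -0.12, limma adjusted p = 0.438). The glutathione transferase genes Mgst3 and Mgst2, which can make leukotriene C4, had 5.80 ± 0.631 and 1.59 ± 0.145 FPKM in the rmMETRNL group, against 5.98 ± 0.885 and 1.63 ± 0.0587 FPKM in the vehicle group. Abcc1, the exporter of leukotriene C4 and of glutathione conjugates, had 31.7 ± 2.74 FPKM in the rmMETRNL group and 36.4 ± 1.96 FPKM in the vehicle group (log2 fold change -0.19, limma unadjusted p = 0.0363 and adjusted p = 0.319), with overlapping groups. Cyp4f18, which inactivates leukotriene B4, had 16.5 ± 1.17 FPKM in the rmMETRNL group and 15.9 ± 1.08 FPKM in the vehicle group, and Cyp4f13 had 5.59 ± 0.873 and 6.51 ± 0.256 FPKM in those groups. Of the 8 genes listed with the leukotriene and lipoxin receptors 3 were tested. Fpr2 had 73.3 ± 1.85 FPKM in the rmMETRNL group and 71.9 ± 2.50 FPKM in the vehicle group. Cmklr1, not itself a leukotriene or lipoxin receptor gene, had 36.6 ± 3.38 and 36.1 ± 3.56 FPKM in those groups. The leukotriene B4 receptor gene Ltb4r1 had 5.24 ± 0.663 and 5.32 ± 1.01 FPKM in those groups. Of the 31-base words of Fpr2 48.3% occur in other genes, so its level is uncertain.

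Of 8 genes of platelet-activating factor synthesis, breakdown and response 7 were tested. Ptafr, the receptor of that lipid, had 41.7 ± 2.18 FPKM in the rmMETRNL group and 37.4 ± 1.23 FPKM in the vehicle group, without overlap (log2 fold change 0.15, limma unadjusted p = 0.0266 and adjusted p = 0.297). Pafah1b1 had 17.1 ± 1.02 FPKM in the rmMETRNL group and 17.5 ± 1.38 FPKM in the vehicle group, and the acyltransferase gene Lpcat2 17.2 ± 0.534 and 16.5 ± 1.14 FPKM. The 3 genes of the annexin list, whose products include the phospholipase-restraining protein annexin A1, all had lower means with rmMETRNL. Anxa1 had 73.0 ± 2.54 FPKM in the rmMETRNL group and 80.3 ± 2.15 FPKM in the vehicle group (log2 fold change -0.14, limma unadjusted p = 0.0213 and adjusted p = 0.281). S100a10 had 106 ± 4.76 FPKM in the rmMETRNL group and 117 ± 5.36 FPKM in the vehicle group (log2 fold change -0.14, limma unadjusted p = 0.0386 and adjusted p = 0.322), and Anxa2 261 ± 13.7 FPKM in the rmMETRNL group and 274 ± 6.96 FPKM in the vehicle group. The groups did not overlap for Anxa1 and S100a10 and overlapped for Anxa2. Among all genes tested, 10.6% were lower with rmMETRNL without overlap, and 48.4% had a higher mean with rmMETRNL.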

How the data were processed

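RNA-seq was measured in 6 libraries, 3 per group, made per the labels' protocols with an Illumina TruSeq kit (the same text names retinas). The authors deposited FPKM values per gene, which use the table's own gene lengths; build GRCm38 (mm10) is named per the submitters' processing notes, and the aligner, counter, annotation release and strand setting were not given in the sources used here. Value times length gave whole reads for 100% of values (tolerance 0.05 reads). At 1 kb, 10 reads correspond to 0.549 to 0.748 FPKM.

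The 9867 genes whose mean reached 1 FPKM entered limma 3.58.1 under R 4.3.3 (trended variance, log2(FPKM + 1), two-sided p), with Benjamini-Hochberg adjustment over all of them and a threshold of 0.05; voom used the recovered reads and each library's total. Ratios were compared by exact permutation. Gene models came from GENCODE M21, whose starts and ends equalled the table's for 98.3% of genes matched. The members and lists were chosen with earlier results of these data known. The 10 genes, the 3 most abundant other genes of each list and the 5 with the smallest p are named, others by count; Ptgdr and Ptgdr2 were named after their values were seen. Alternatives were other pseudocounts, filters, scalings, variance models, protein-coding genes only, a length correction, a replicate block and leaving out each library.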

Additional observations from a re-analysis of the deposited data

How the results depend on the processing

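None of the 10 genes passed an adjusted p of 0.05 in limma under any of the 20 alternatives (lowest adjusted p = 0.0933, Ptges in voom, with Ptgs2 at 0.0939). Ptges ranged over log2 fold changes of 0.18 to 0.23 and Ptgs2 over 0.17 to 0.32, both positive in all 20. Over all genes the count of 0 became 61 in limma voom, 6 with protein-coding genes only, 5 with no filter on low values, and 1 each after rescaling to TPM, with robust variance estimation and with array weights; the cause was not tested. Signs reversed only in genes near no difference. Alox5ap turned to 0.0126 after rescaling to TPM, 0.0142 with array weights, 0.00457 with quantile normalization and 0.0490 after removal of the length trend, with -0.0563 to 0.0507 over the fits that leave out 1 library. Ptger4 turned to 0.0107 after rescaling to TPM and 0.0102 with quantile normalization, with -0.0530 to 0.0587 over the fits that leave out 1 library, and Ptgs1 ranged from -0.0487 to 0.0790 over those. With the replicate number as a block, Ptgs2 and Ptges had an adjusted p of 0.311 each in limma and 0 genes passed. The labels do not say that a number marks a shared batch, and the correlations of same-numbered libraries were 0.0270, 0.0053 and -0.0533 across genes, so the numbers were not taken as pairs. A minimum of 5 FPKM left out Ptger4 and Alox5. Depth limits Alox5, with 53 to 94 reads per library.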
